A study of Homo sapiens with 12 samples.

Results

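Lysosome and autophagy genes were described as a set of 36 named genes. They were chosen by symbol from their function, with earlier results of these data known. All 36 were found in both deposited tables, which list 25720 and 25714 genes. The tables hold RNA-seq counts of 12 libraries, 3 in each of 4 groups, from hepatoma lines of human origin: cells labelled Hep-3B given a negative-control siRNA (NC) or an siRNA against ARD1 (siARD1), and Huh-7 cells given the same. The libraries labelled Hep-3B are also called the first line. ARD1 is known today as NAA10, and its protein acetylates the N termini of others within the NatA complex. By its title the series asks how this acetyltransferase bears on glutathione and on ferroptosis, a cell death driven by lipid peroxidation. All groups share transfection with an siRNA. The labels give no dose, no time after transfection and no siRNA sequence. Whether replicates came from separate cultures is not stated, so a p-value here measures the spread between libraries and no more.

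Lysosomes are acidic organelles in which hydrolases break down proteins, lipids and glycans. A multi-subunit proton pump, the V-ATPase, keeps their lumen acidic, and autophagy brings parts of the cytoplasm to them inside double-membraned vesicles. Many of these genes carry a site read by the related activators TFEB, TFE3 and MITF, whose entry into the nucleus is held back when the kinase complex mTORC1 is active. In liver cells the pathway is known for turning over lipoproteins, stored lipid, ferritin and damaged organelles.

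The core of that site is spelled TCACGTGA, and its inner 6 letters, CACGTG, are the shorter E-box. Both read the same on either strand, and each TCACGTGA also holds a CACGTG. In RefSeq promoter windows (GRCh38.p14, 250 bases before to 50 after a gene's start), 28 of the 36 genes had an entry. Of these, 4 (14.3%) held TCACGTGA, against 1.18% of 27305 genes in the RefSeq table, and 6 (21.4%) held CACGTG, against 8.77%. The 36 genes were chosen by function from a class known for this site, so the higher share is not an independent result. The 27305 genes also include ones not tested in these data. The 4 genes were CTSA, LAMP1, MCOLN1 and ATP6V0D1, and NEU1 and CTSD held CACGTG but not TCACGTGA. The 250 bases before the start are printed for the first 4, because each changed in at least 1 line, and for NEU1, chosen after its values were seen as the gene with the largest change. They are written 5′ to 3′ along the gene. Capitals mark each TCACGTGA that is printed whole, and each CACGTG that lies outside one.
CTSA: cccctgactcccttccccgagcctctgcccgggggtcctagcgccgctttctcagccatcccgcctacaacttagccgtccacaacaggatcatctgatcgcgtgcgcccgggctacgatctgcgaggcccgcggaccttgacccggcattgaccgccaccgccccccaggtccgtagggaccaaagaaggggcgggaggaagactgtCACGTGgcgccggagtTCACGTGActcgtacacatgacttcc
LAMP1: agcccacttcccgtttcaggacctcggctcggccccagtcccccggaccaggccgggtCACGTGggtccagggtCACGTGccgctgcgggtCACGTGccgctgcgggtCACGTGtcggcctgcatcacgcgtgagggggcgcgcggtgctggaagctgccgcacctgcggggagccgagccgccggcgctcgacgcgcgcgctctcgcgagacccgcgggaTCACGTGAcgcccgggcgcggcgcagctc
MCOLN1: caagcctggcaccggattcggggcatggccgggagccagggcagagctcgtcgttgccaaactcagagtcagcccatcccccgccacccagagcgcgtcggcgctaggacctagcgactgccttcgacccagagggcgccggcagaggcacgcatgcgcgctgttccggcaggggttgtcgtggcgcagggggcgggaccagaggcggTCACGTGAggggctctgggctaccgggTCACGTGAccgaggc
ATP6V0D1: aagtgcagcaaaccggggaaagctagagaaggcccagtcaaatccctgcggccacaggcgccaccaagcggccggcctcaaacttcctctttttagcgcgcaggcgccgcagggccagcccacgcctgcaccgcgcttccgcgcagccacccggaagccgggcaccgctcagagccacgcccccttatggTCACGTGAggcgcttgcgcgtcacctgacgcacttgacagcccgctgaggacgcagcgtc
NEU1: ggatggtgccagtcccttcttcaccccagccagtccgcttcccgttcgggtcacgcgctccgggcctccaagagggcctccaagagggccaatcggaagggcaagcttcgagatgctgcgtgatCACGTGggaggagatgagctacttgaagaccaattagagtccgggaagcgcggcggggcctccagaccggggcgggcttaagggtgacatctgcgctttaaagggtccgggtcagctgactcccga
They lie at chr20:45891085-45891334 (plus strand), chr13:113296989-113297238 (plus), chr19:7522374-7522623 (plus), chr16:67481158-67481407 (minus) and chr6:31862822-31863071 (minus). LAMP1 had 6 copies of CACGTG in its window. Their first bases lay 192, 176, 159, 142, 28 and 1 bases before the start. Of these copies 2 lay within a TCACGTGA, those at 28 and 1. The last runs across the start, so it is not printed whole and is not in capitals. MCOLN1 had its pair 41 and 14 bases before the start, CTSA 42 and 25, ATP6V0D1 a single copy at 59 and NEU1 a single copy at 126. A match in letters is a description of the sequence and does not show that a factor binds there.

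Total counts ran from 17327615 to 25960237 per library. The 36 genes together held 1.03 to 1.08% of counts in the 3 controls labelled Hep-3B and 1.10 to 1.12% after siARD1, and 0.570 to 0.588% and 0.611 to 0.634% in Huh-7. NAA10 fell from 55.3 ± 5.94 to 13.6 ± 2.47 CPM (SD, n = 3) in the libraries labelled Hep-3B and from 174 ± 23.4 CPM by 3.98 on the log2 scale in Huh-7, with CPM taken on TMM-scaled library sizes. The 6 libraries labelled Hep-3B had AFP at 0.260 to 1.97 CPM (3182 to 5281 in Huh-7) and ALB at 0.564 to 6.20 CPM (10689 to 12771 in Huh-7), although that line is known for both. They are therefore named by their label only. In these libraries 4 of 6 tested hepatocyte markers fell, and their summed level did not overlap between controls (374 to 454 CPM) and siARD1 libraries (197 to 203 CPM), most of it FGB. In Huh-7, 3 of 8 fell, and the sums (29997 to 31147 and 24150 to 27823 CPM) did not overlap either. Whether this has a part in the results below was not tested. Markers of melanocytes, in which MITF is best known, summed to 1.43 to 2.65 CPM over all groups. Of 8 macrophage and leukocyte markers, those in the tables summed to 1.85 to 3.25 CPM in the first line and 94.4 to 115 CPM in Huh-7, mostly LYZ (82.9 to 105 CPM) and CD14 (8.88 to 11.7 CPM), while PTPRC was at 0 to 0.455 CPM in all 12 libraries. No marker of this list that was tested passed (1 in the first line and 2 in Huh-7). Of fibroblast markers, 3 of 5 tested fell in Huh-7, with sums of 40.3 to 45.0 CPM in controls and 27.5 to 27.8 CPM after siARD1. In the first line 0 of 4 passed (162 to 174 and 137 to 172 CPM), most of it LUM at 104 to 145 CPM. Of the endothelial markers tested there, 1 rose and 1 fell. KDR stood at 33.4 to 42.3 CPM in controls and 47.4 to 57.6 CPM after siARD1, and PECAM1 at 19.3 to 24.6 and 14.7 to 18.0 CPM. Their list's sums overlapped (53.3 to 65.9 and 63.4 to 76.2 CPM). In Huh-7 the endothelial sums were 13.1 to 14.4 and 10.8 to 13.2 CPM, and the 1 marker tested did not pass. The part of these markers in the results was not tested either.

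Levels were compared between genes as CPM per kilobase of exon (GENCODE v29). PSAP, whose product is cut into the saposins that help enzymes reach lipids, stood highest in every group, at 1224 in the Hep-3B controls and 475 in the Huh-7 controls. After it came the cathepsin genes. In the controls labelled Hep-3B, CTSL stood at 400 and CTSB at 208 CPM per kilobase, whereas in Huh-7 controls CTSZ (97.1), CTSD (67.6) and CTSB (59.4) led and CTSL stood at 28.8. Of the activators, TFE3 was at 31.7 and 34.5 CPM per kilobase in the 2 sets of controls, TFEB at 1.64 and 0.872, and MITF at 4.45 and 0.0302. MITF counts in Huh-7 were 1 to 7 per library, so it could not be tested there.

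After siARD1, more of the 36 genes rose than fell in both lines, and mostly by small amounts (log2 from -0.30 to 0.62 in the libraries labelled Hep-3B and from -0.71 to 1.09 in Huh-7). In the libraries labelled Hep-3B all 36 passed the filter on low counts, and 11 rose and 3 fell (38.9%, against 32.2% of all 15762 tested genes, 16.8% higher and 15.3% lower). In Huh-7 35 passed it, and 16 rose and 5 fell (21 of 35, against 40.1% of 15919, 21.2% higher and 18.9% lower). A gene is called when its edgeR quasi-likelihood p, adjusted over all tested genes, is under 0.05. The share called was thus close to that of all genes in the first line and above it in Huh-7. The median log2 fold change was 0.06 in both lines, over 36 genes in the first and 35 in Huh-7, beside -0.01 over all tested genes in each. The siARD1 values of 14 genes (38.9%) lay wholly outside the control values in the first line, 11 of them above and 3 below, against 45.0% of all tested genes (22.7% above and 22.3% below). In Huh-7 they did so for 22 genes (61.1%), 16 above and 6 below, against 50.0% (26.1% above and 23.9% below). The 3 genes that fell in the first line became 1 without control 2, control 3 or siARD1 library 1, and the 5 in Huh-7 became 3 without control 1 and 2 without siARD1 library 2. With upper-quartile scaling in Huh-7, 39.7% of all called genes were higher, against 52.9% with TMM, and the median of the members that were tested was -0.00036. Among the members in Huh-7, CTSL, TPP1, ATP6V0D1 and ATG5 then lost their calls as higher, and GUSB and WIPI1 were called lower. In the first line the same scaling gave 44.9% of all called genes as higher, against 52.3% with TMM. The median of the members there was 0.030, and ATP6V1H lost its call. Direction counts therefore depend on the scaling in both lines, although every call of a member kept its sign under every alternative tried.

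**Figure D1:**
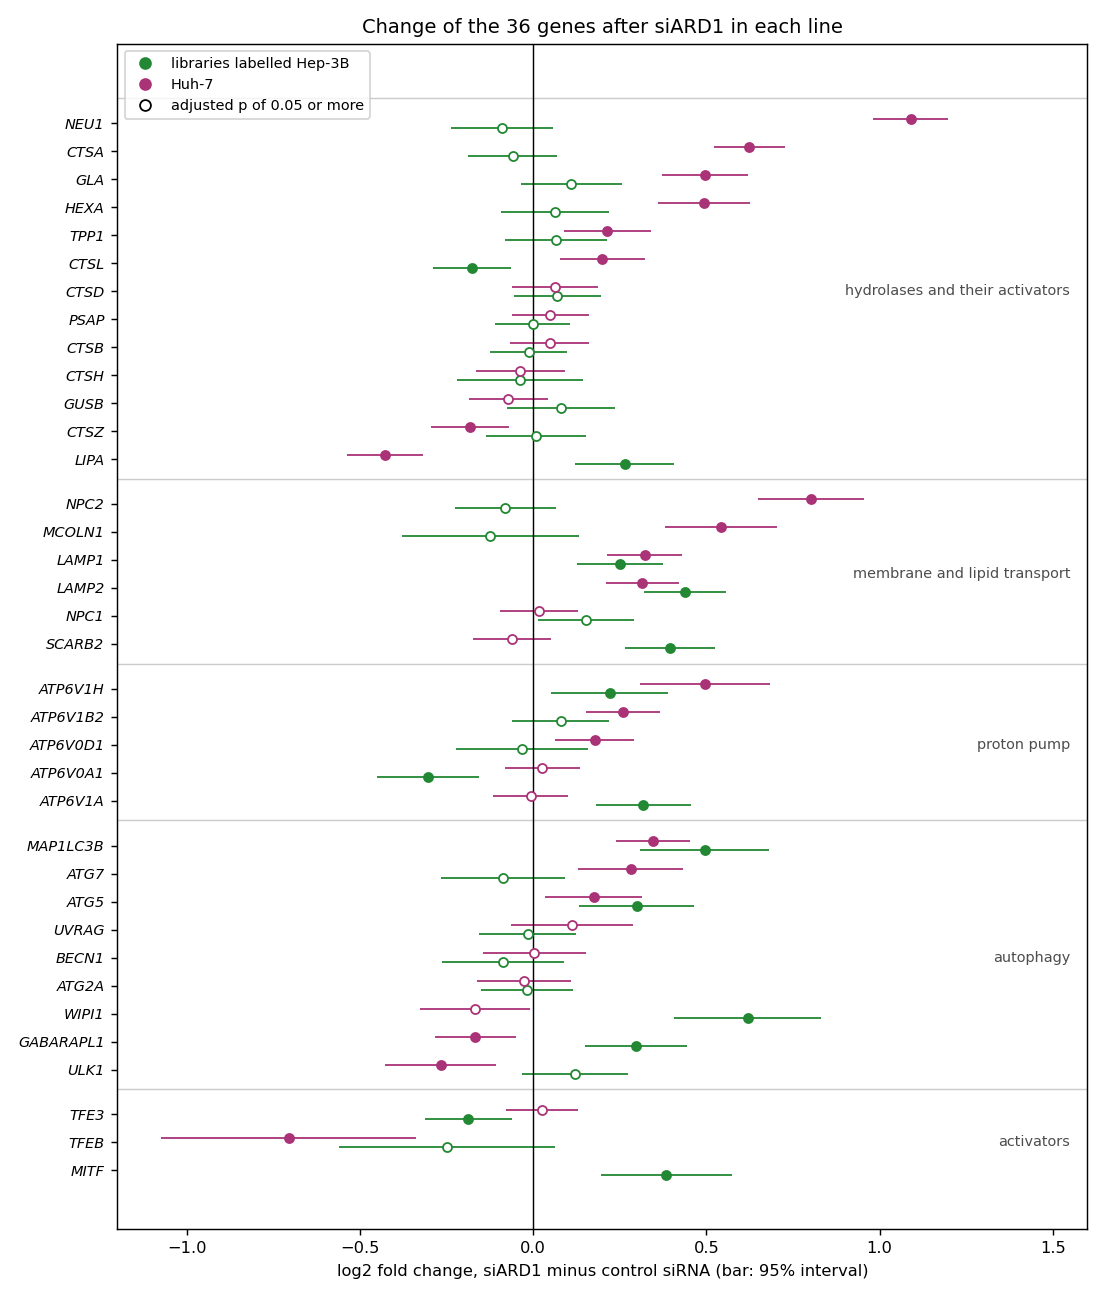
Log2 fold change (x axis, siARD1 minus control siRNA) with its 95% interval for each of the 36 genes, grouped by role, in the libraries labelled Hep-3B (green) and Huh-7 (purple). Filled points passed an adjusted p of 0.05. NEU1 in Huh-7 lies farthest to the right, at 1.09, and TFEB in Huh-7 farthest to the left, at -0.71.

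Among 13 genes of hydrolases and their activators, 6 rose and 2 fell in Huh-7 (61.5% called, against 40.1% of all tested genes). In the libraries labelled Hep-3B, 1 rose and 1 fell (15.4%, against 32.2%). NEU1 (ENSG00000204386, GRCh38 chromosome 6, 31857659 to 31862906) encodes the lysosomal sialidase, which needs the protective protein made from CTSA. In Huh-7 it stood at 126, 122 and 126 CPM in the controls and 275, 269 and 254 CPM after siARD1. The groups lay far apart, a 2.13-fold rise (log2 1.09, SE 0.05, edgeR adjusted p = 7.94e-13). In the libraries labelled Hep-3B NEU1 was at 94.0, 99.3 and 95.1 CPM and then 85.6, 99.1 and 86.1 CPM, with overlapping groups (log2 -0.09, adjusted p = 0.350).

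CTSA (ENSG00000064601, chromosome 20, 45890144 to 45898820), which also encodes the serine carboxypeptidase cathepsin A, moved like NEU1. In Huh-7 its values were 213, 213 and 208 CPM in the controls and 329, 327 and 321 CPM after siARD1, a rise of 1.54-fold (log2 0.62, SE 0.05, edgeR adjusted p = 2.76e-09). In the other line they were 327, 352 and 340 CPM and then 319, 349 and 310 CPM, which overlap. The mean after siARD1 in Huh-7 (326 CPM) lay near those of the libraries labelled Hep-3B (339 and 326 CPM). CPM were scaled within each line only, so levels in the 2 lines compare roughly.

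The sphingolipid enzymes HEXA and GLA rose in Huh-7 by nearly the same amount. HEXA, the alpha subunit of hexosaminidase A, went from 50.0, 45.8 and 45.0 to 67.9, 64.8 and 65.3 CPM (log2 0.49, SE 0.06, edgeR adjusted p = 2.53e-06). GLA, the alpha-galactosidase deficient in Fabry disease, went from 61.3, 65.2 and 68.5 to 87.9, 94.9 and 92.9 CPM (log2 0.50, SE 0.06, adjusted p = 9.70e-07). HEXA shares up to 1273 of its 12611 exon bases with a gene on the opposite strand, whose reads cannot be told apart here. In neither gene did the Huh-7 groups overlap, and in the libraries labelled Hep-3B neither passed (log2 0.06 and 0.11). TPP1, a tripeptidyl peptidase, rose in Huh-7 by 0.21 on the log2 scale (adjusted p = 0.00747). It did not pass without control 2 (0.0604), without control 3 (0.0598) and with upper-quartile scaling (0.0529).

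LIPA, the acid lipase that frees cholesterol and fatty acids from lipoproteins, moved in opposite directions. In the libraries labelled Hep-3B it rose from 114, 117 and 105 to 138, 141 and 125 CPM (log2 0.26, SE 0.07, edgeR adjusted p = 0.00659). In Huh-7 it fell from 108, 106 and 104 to 77.6, 78.8 and 80.6 CPM (log2 -0.43, SE 0.05, adjusted p = 1.55e-06). The control levels were alike in the lines, each scaled on its own, and the groups overlapped in neither. CTSL, a cysteine cathepsin, showed the reverse, a fall of 0.18 in the first line (946.5 to 837 CPM, adjusted p = 0.0176) and a rise of 0.20 in Huh-7 (68.2 to 78.3 CPM, adjusted p = 0.00958). The fall did not pass without control 2 (0.0761), control 3 (0.0597) or siARD1 library 1 (0.0886), and the rise without control 3 (0.0576) and with upper-quartile scaling (0.0681). CTSZ, a carboxypeptidase cathepsin, fell in Huh-7 by 0.18 (adjusted p = 0.00986), a call lost without control 2 (0.0600) or siARD1 library 2 (0.0614).

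PSAP and 4 hydrolase genes did not pass in either line. Log2 fold changes in the Hep-3B and Huh-7 comparisons were -0.00 and 0.05 for PSAP, -0.01 and 0.05 for CTSB, 0.07 and 0.06 for the aspartic protease gene CTSD, and -0.04 and -0.04 for CTSH. For CTSB the 95% interval ran from -0.12 to 0.10 in the first line and from -0.07 to 0.16 in Huh-7. GUSB, the beta-glucuronidase gene, stood at 0.08 and -0.07, and passed as lower in Huh-7 with upper-quartile scaling (-0.14, edgeR adjusted p = 0.0493). Pseudogene copies of GUSB and CTSL make their counts uncertain.

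**Figure D2:**
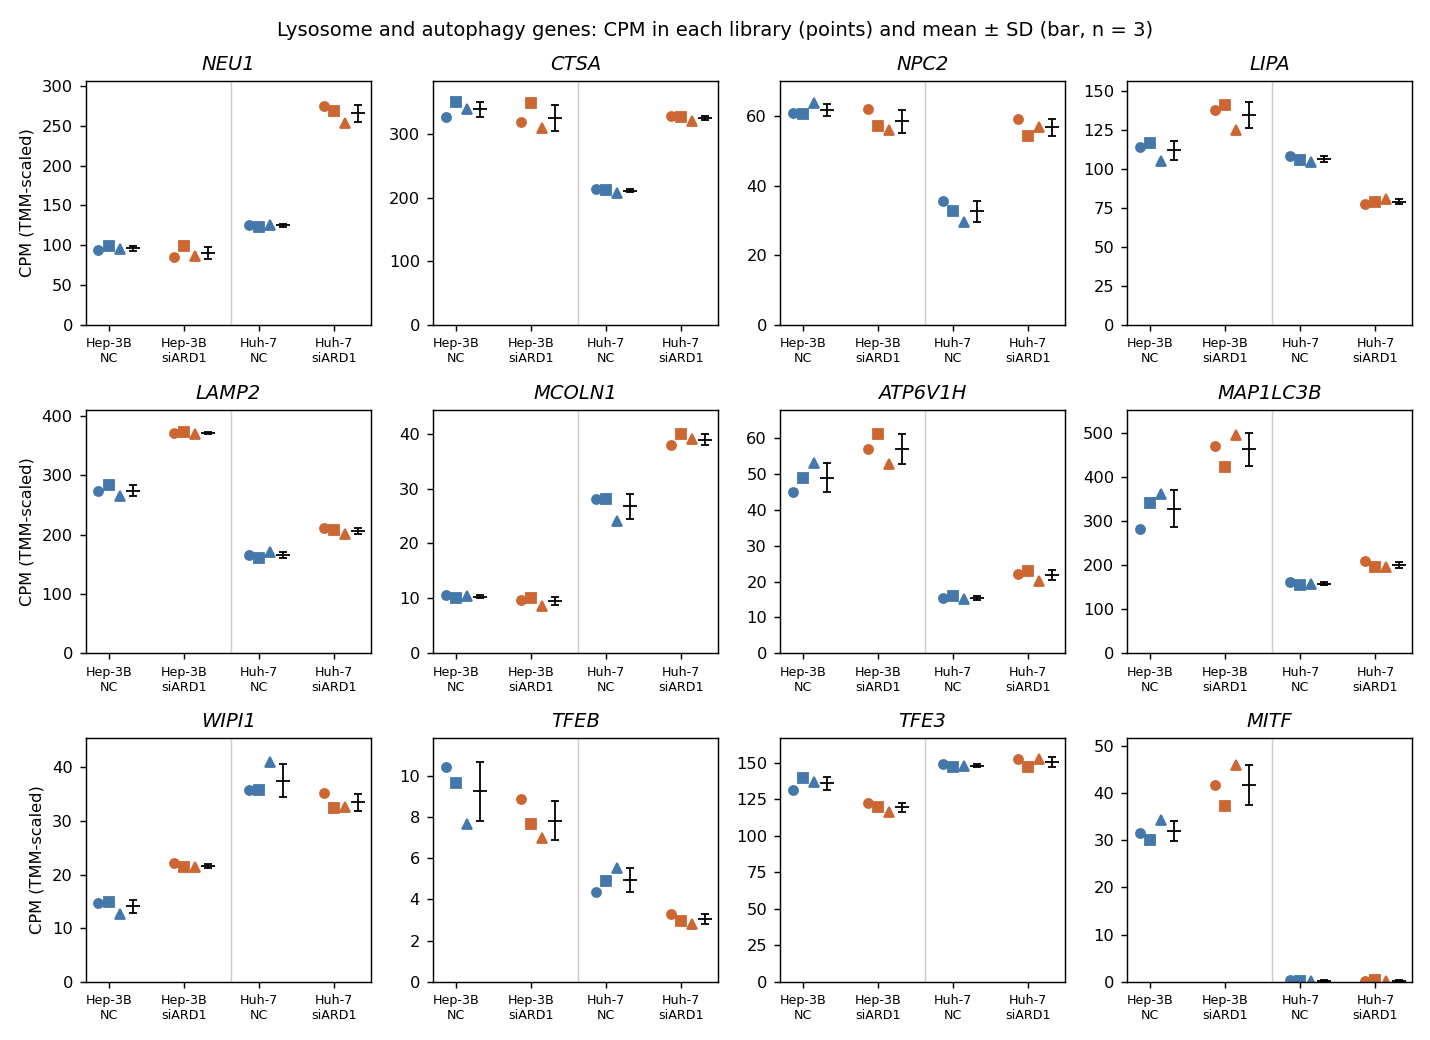
CPM (y axis, from 0) of 12 of the genes in each library, as points shaped by replicate number (blue, control siRNA; orange, siARD1), with the mean ± SD of each group (n = 3) as a bar. For NEU1, CTSA, NPC2 and MCOLN1 the groups stand apart in Huh-7 and overlap in the libraries labelled Hep-3B, LIPA shifts in opposite directions, and MITF lies near 0 in Huh-7.

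Of 6 membrane and lipid transport genes, 3 rose in the libraries labelled Hep-3B (50.0%, against 32.2% of all tested genes called). In Huh-7, 4 rose (66.7%, against 40.1%), and 0 fell in either line. The main glycoproteins of the lysosomal membrane rose in both. LAMP1 stood at 133, 137 and 138 CPM in the first line's controls and 168, 162 and 155 CPM after siARD1 (log2 0.25, edgeR adjusted p = 0.00390). In Huh-7 it went from 272, 262 and 273 to 350, 319 and 340 CPM (0.32, adjusted p = 4.22e-05). LAMP2, whose splice forms include the receptor of chaperone-mediated autophagy, rose from 273, 284 and 266 to 372, 374 and 370 CPM in the first line (0.44, adjusted p = 2.49e-05). In Huh-7 it rose from 166, 161 and 171 to 211, 207 and 201 CPM (0.32, adjusted p = 3.87e-05). In both genes and both lines every siARD1 library lay above every control.

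SCARB2, an abundant protein of the lysosomal membrane, rose in the first line from 346, 344 and 336 to 446, 484 and 419 CPM (log2 0.40, edgeR adjusted p = 0.000151). In Huh-7 it went from 375, 352 and 359 to 370, 334 and 337 CPM, which overlap (-0.06, adjusted p = 0.399), and the difference between lines passed (-0.47, adjusted p = 8.72e-05). The cholesterol exporters of the lysosome, NPC2 in the lumen and NPC1 in the membrane, moved apart in Huh-7. NPC2 rose there from 35.5, 32.8 and 29.5 to 59.3, 54.3 and 56.8 CPM (1.74-fold, log2 0.80, SE 0.07, adjusted p = 2.58e-08), while NPC1 stood at 0.02 (95% interval -0.10 to 0.13). In the libraries labelled Hep-3B NPC2 was at -0.08 and NPC1 at 0.15 (adjusted p = 0.0869), and NPC1 passed without control 3 (0.0377). MCOLN1, the calcium channel TRPML1, rose in Huh-7 from 28.1, 28.0 and 24.1 to 37.9, 39.9 and 38.9 CPM (0.54, SE 0.08, adjusted p = 9.39e-06). It stood at 8.67 to 10.6 CPM in the 6 libraries of the other line, with overlapping groups (-0.12, adjusted p = 0.467).

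Of 5 proton pump subunit genes, 2 rose and 1 fell in the libraries labelled Hep-3B, and 3 rose in Huh-7. Among all tested genes, 32.2% were called in the first line (16.8% higher and 15.3% lower). In Huh-7 40.1% were called (21.2% higher and 18.9% lower). ATP6V1H, a regulatory subunit of the cytosolic V1 sector, was called in both. In Huh-7 it rose from 15.3, 16.1 and 15.0 to 22.1, 23.1 and 20.3 CPM (log2 0.50, SE 0.09, edgeR adjusted p = 0.000156). In the first line it went from 45.0, 48.9 and 53.0 to 57.1, 61.3 and 52.9 CPM (0.22, adjusted p = 0.0451). There the lowest siARD1 value lay just under the highest control, and it did not pass without control 1 (0.128) or 2 (0.103), or without siARD1 library 1 (0.111) or 2 (0.162), with upper-quartile scaling (0.0838) and in DESeq2 (0.0516).

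The catalytic V1 subunit gene ATP6V1A rose in the first line from 101, 91.1 and 97.9 to 118, 116 and 127 CPM (log2 0.32, edgeR adjusted p = 0.00141), and stood at -0.01 in Huh-7. Its partner in the catalytic ring, ATP6V1B2, rose in Huh-7 from 163, 154 and 157 to 195, 182 and 191 CPM (0.26, adjusted p = 0.000371), and was at 0.08 in the first line. In the membrane-bound V0 sector, ATP6V0A1 fell in the first line from 64.8, 62.2 and 61.6 to 49.9, 53.9 and 49.0 CPM (-0.30, adjusted p = 0.00319) and was at 0.03 in Huh-7. ATP6V0D1, which joins the sectors, rose in Huh-7 by 0.18 (adjusted p = 0.0127), a call lost without control 1 (0.0509), with upper-quartile scaling (0.0966) and with both lines in 1 fit (0.0771). In the first line the calls among the 5 subunit genes went in both directions. In Huh-7, 3 rose, 0 fell, and ATP6V0A1 and ATP6V1A stood at 0.03 and -0.01. These counts rest on 5 genes, and whether their directions differ from those of all tested genes was not tested.

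Of 9 autophagy genes, 4 rose in the libraries labelled Hep-3B with 0 falling, and 3 rose and 2 fell in Huh-7. The shares called were 44.4% and 55.6%, against 32.2% and 40.1% of all tested genes. MAP1LC3B, which encodes the LC3 protein that is joined to the lipid of the autophagosome membrane, rose in both. It went from 283, 341 and 363 to 471, 423 and 496 CPM in the first line (log2 0.49, SE 0.09, edgeR adjusted p = 0.000752). In Huh-7 it went from 161, 156 and 157 to 209, 197 and 197 CPM (0.35, SE 0.05, adjusted p = 1.29e-05). The groups did not overlap in either. ATG5, part of the enzyme complex that attaches LC3, rose by 0.30 in the first line (adjusted p = 0.00803) and by 0.17 in Huh-7 (0.0420). The Huh-7 value did not pass without control 1 (0.208) or 3 (0.0520), or without siARD1 library 1 (0.176) or 2 (0.0871). It was also lost with the replicate block (0.0512), with upper-quartile scaling (0.190), in DESeq2 (0.0759), with a filter of 1 CPM in 3 libraries (0.0556) and with both lines in 1 fit (0.109). Close copies of MAP1LC3B and GABARAPL1 make their counts uncertain too.

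WIPI1, which binds the phospholipid made where autophagosomes begin, had the largest change of the 36 genes in the libraries labelled Hep-3B. It rose from 14.7, 14.8 and 12.6 to 22.1, 21.4 and 21.4 CPM (1.54-fold, log2 0.62, SE 0.10, edgeR adjusted p = 0.000230). In Huh-7 it went the other way, from 35.7, 35.7 and 41.1 to 35.3, 32.5 and 32.7 CPM, without overlap but without passing (-0.17, adjusted p = 0.0889; 0.0198 with upper-quartile scaling). GABARAPL1, an LC3 relative, rose in the first line from 121, 121 and 115 to 149, 132 and 158 CPM (0.30, adjusted p = 0.00368). It fell in Huh-7 from 99.9, 93.8 and 95.3 to 89.8, 82.4 and 85.1 CPM (-0.17, adjusted p = 0.0213), a call lost without control 1 (0.0786), control 3 (0.0600) or siARD1 library 2 (0.0917). ULK1, the kinase that starts autophagy, fell in Huh-7 from 155, 137 and 140 to 135, 119 and 106 CPM (-0.27, adjusted p = 0.00975), and that call was lost without control 1 (0.0546) or siARD1 library 2 (0.0515). ATG7, the activating enzyme for the LC3 family, rose in Huh-7 from 30.2, 31.2 and 32.3 to 40.1, 37.8 and 36.2 CPM (0.28, adjusted p = 0.00366). BECN1 and UVRAG, partners in the lipid kinase complex of early autophagy, and the lipid transfer gene ATG2A did not pass in either line, with log2 values from -0.09 to 0.11.

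The 3 activator genes moved little or downward, apart from MITF. TFEB was low in all libraries. In Huh-7 it stood at 4.34, 4.91 and 5.52 CPM in the controls and 3.30, 2.96 and 2.83 CPM after siARD1, a fall with separate groups (log2 -0.71, SE 0.18, edgeR adjusted p = 0.00292), on 54 to 126 counts per library. In the libraries labelled Hep-3B it was at 10.4, 9.63 and 7.67 and then 8.86, 7.64 and 6.98 CPM, which overlap (-0.25, adjusted p = 0.213). TFE3 fell in that line from 131, 140 and 137 to 122, 120 and 116 CPM (-0.19, adjusted p = 0.0236). It did not pass without control 2 (0.0916) or 3 (0.0630), or without siARD1 library 1 (0.0621) or 3 (0.0913). In Huh-7 TFE3 stood at 0.03 (95% interval -0.08 to 0.13). MITF rose in the first line from 31.6, 30.0 and 34.2 to 41.8, 37.4 and 46.0 CPM (0.38, SE 0.09, adjusted p = 0.00362). These are mRNA levels, and the activators are known to be controlled mainly by phosphorylation and location, which RNA-seq does not measure.

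The change differed between lines in 15 of the 36 genes by the interaction test (41.7%, against 31.4% of 17122 genes tested). The change in Huh-7 was the higher in 9 and the lower in 6. NEU1 had the largest difference, 1.16 on the log2 scale (SE 0.09, edgeR adjusted p = 9.46e-11), followed by NPC2 at 0.87, WIPI1 at -0.80, LIPA at -0.71, CTSA at 0.67 and MCOLN1 at 0.65. Of the 16 genes that rose in Huh-7, 5 also rose in the libraries labelled Hep-3B: LAMP1, LAMP2, ATP6V1H, MAP1LC3B and ATG5. For these 5 the difference did not pass, with values from -0.17 to 0.26 (adjusted p from 0.104 to 0.641), although that of ATP6V1H passed without Hep-3B control 1 (0.0324). LIPA and GABARAPL1 were called higher in the first line and lower in Huh-7, CTSL the reverse, and in all 3 the difference passed (adjusted p from 4.05e-07 to 0.000944). In 9 genes neither line gave a call. For TFEB the difference was -0.47 (95% interval -0.95 to -0.00, adjusted p = 0.121), so its fall is not shown to differ between lines. The difference in TFE3 was 0.20 (adjusted p = 0.0529), and passed with RLE scaling (0.0336), in DESeq2 (0.0155), and without Hep-3B control 1 (0.0146) or Huh-7 siARD1 library 2 (0.0488). That in ATG7 (0.35, adjusted p = 0.0196) was lost without Hep-3B control 3 (0.0594), Hep-3B siARD1 library 1 (0.0553), Huh-7 control 1 (0.0524) or Huh-7 siARD1 library 1 (0.0563).

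**Figure D3:**
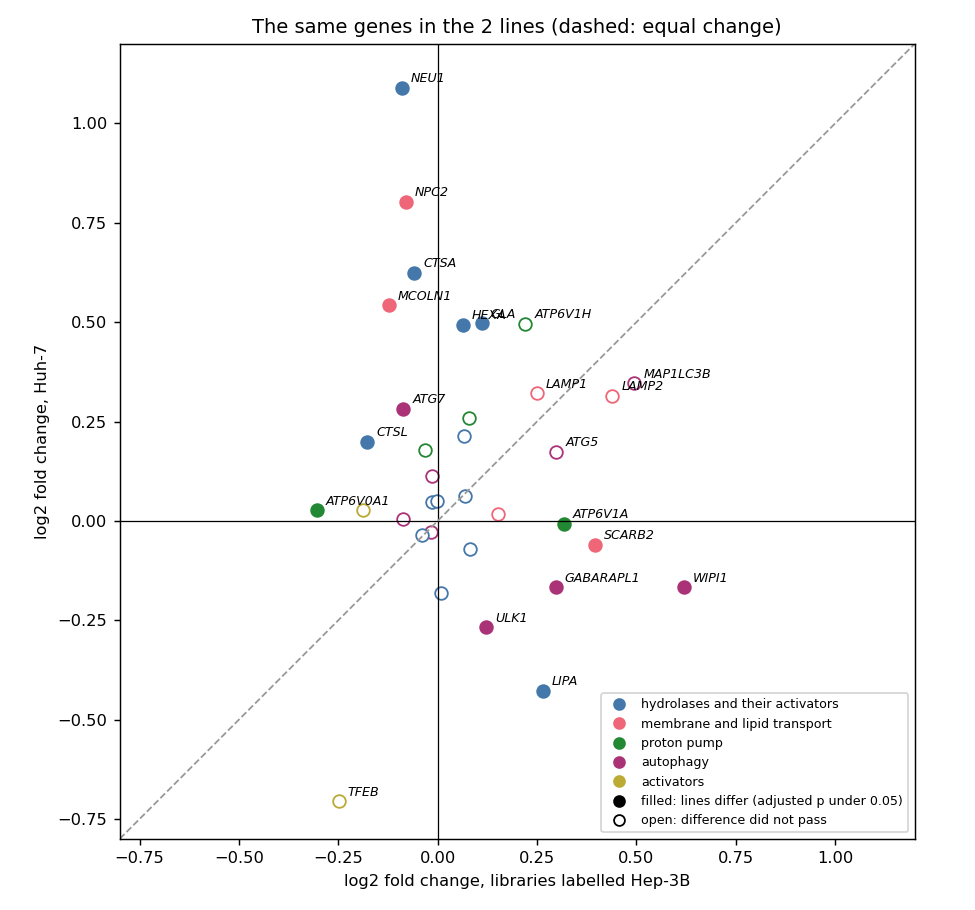
Log2 fold change after siARD1 in the libraries labelled Hep-3B (x axis) against Huh-7 (y axis) for the 35 genes tested in both, coloured by role, with equal change as the dashed line. Filled points differ between lines at an adjusted p under 0.05. NEU1, NPC2, CTSA and MCOLN1 lie high near the zero of the x axis, WIPI1 and LIPA lie at the lower right, and TFEB lies at the lower left.

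Wider lists of the pathway gave the setting. Of 20 other proton pump genes, 17 were tested in each line, and 9 rose and 2 fell in Huh-7 (median log2 0.32), against 5 and 1 in the libraries labelled Hep-3B (0.13). The shares called were 64.7% and 35.3%, beside 40.1% and 32.2% of all tested genes. In Huh-7 the V0 subunit gene ATP6V0E1 rose by 0.51 and the V1 stalk gene ATP6V1E1 by 0.46. TCIRG1, the a3 form of the V0 subunit, fell there from 337 to 194 CPM (-0.79, edgeR adjusted p = 6.28e-09) and also in the first line (-0.34). ATP6V0D2 rose in both lines from low levels, in the first from 0.881 to 3.43 CPM (2.01) and in Huh-7 from 0.402 to 1.26 CPM (1.64). ATP6V0A2 also rose in both (0.39 and 0.61). ATP6V0B rose in the first line by 0.37 and stood at 0.12 in Huh-7. Of other hydrolase and activator genes, 14 of 40 rose and 10 fell in Huh-7 (median 0.08), and 8 of 37 rose and 7 fell in the first line (0.01). The acid ceramidase gene ASAH1 rose in both (0.75 in Huh-7 and 0.42 in the first line). The hyaluronidase gene HYAL1 fell in the first line (-0.73).

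Of other lysosomal membrane genes, 9 of 29 rose and 7 fell in Huh-7 (median -0.00), and 6 of 26 rose and 4 fell in the libraries labelled Hep-3B (-0.01). The shares called were 55.2% and 38.5%, beside 40.1% and 32.2% of all tested genes. OSTM1, the partner of a lysosomal chloride transporter, rose in both (0.74 and 0.88). The cystine exporter gene CTNS rose in Huh-7 from 29.1 to 48.5 CPM (0.74, edgeR adjusted p = 4.04e-08) and TMEM192 by 0.75. TMEM106B rose in the first line by 0.96 and the ion channel gene TPCN1 fell by 0.61. Among genes of sorting and fusion, 9 of 20 rose and 2 fell in Huh-7 (0.15), including both mannose 6-phosphate receptor genes, IGF2R (0.45) and M6PR (0.45), and the tethering gene VPS18 (0.67). In the first line 3 of 20 rose and 6 fell (-0.05), VAMP7 (0.79) and SORT1 (0.40) among the former and VPS11 (-0.57) among the latter. Of the sorting and fusion genes, 55.0% were called in Huh-7 and 45.0% in the first line. SORT1 fell in Huh-7 (-0.25).

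Of 31 other autophagy core genes, 7 rose and 5 fell in Huh-7, and 3 rose and 6 fell in the libraries labelled Hep-3B, both near the shares of all genes. Huh-7 examples were the ULK1 complex gene ATG101 (0.52), ATG14 (0.44) and ATG3 (0.32). RB1CC1, the scaffold of the same complex, rose by 0.40 in the first line and fell in Huh-7 (-0.20), while WDR45B (-0.32) and the lipid kinase gene PIK3C3 (-0.45) fell in the first line. Of autophagy receptor genes, 4 of 15 rose and 3 fell in Huh-7 (46.7% called, against 40.1% of all genes). SQSTM1, which encodes p62, rose from 240 to 636 CPM (1.41), and the mitophagy receptor gene BNIP3L (-0.88) and NBR1 (-0.48) fell. BNIP3L rose in the first line (0.19). Of 14 in the first line, 3 rose and 1 fell (28.6% called, against 32.2% of all genes), with the ER-phagy receptor gene CCPG1 at 1.06, TAX1BP1 at 0.52 and BNIP3 at -0.38. BNIP3 also fell in Huh-7 (-0.58). In the list of mTORC1 and Rag genes, which act on TFEB, 11 of 26 rose and 3 fell in Huh-7 (53.8% called, against 40.1%). The mTORC1 subunit genes RPTOR (0.70) and MLST8 (0.44) rose and SESN3, a restraint on mTORC1, fell from 98.4 to 50.3 CPM (-0.97). SESN3 rose in the first line from a low level (0.542 to 1.26 CPM, 1.24). Of 26 in the first line, 8 rose and 6 fell (53.8% called, against 32.2%). RHEB (0.45) and RRAGD (0.41) were among the former and TSC2 (-0.48) among the latter. Genes in these 3 paragraphs are among the 3 with the smallest adjusted p in each list and line.

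**Figure D4:**
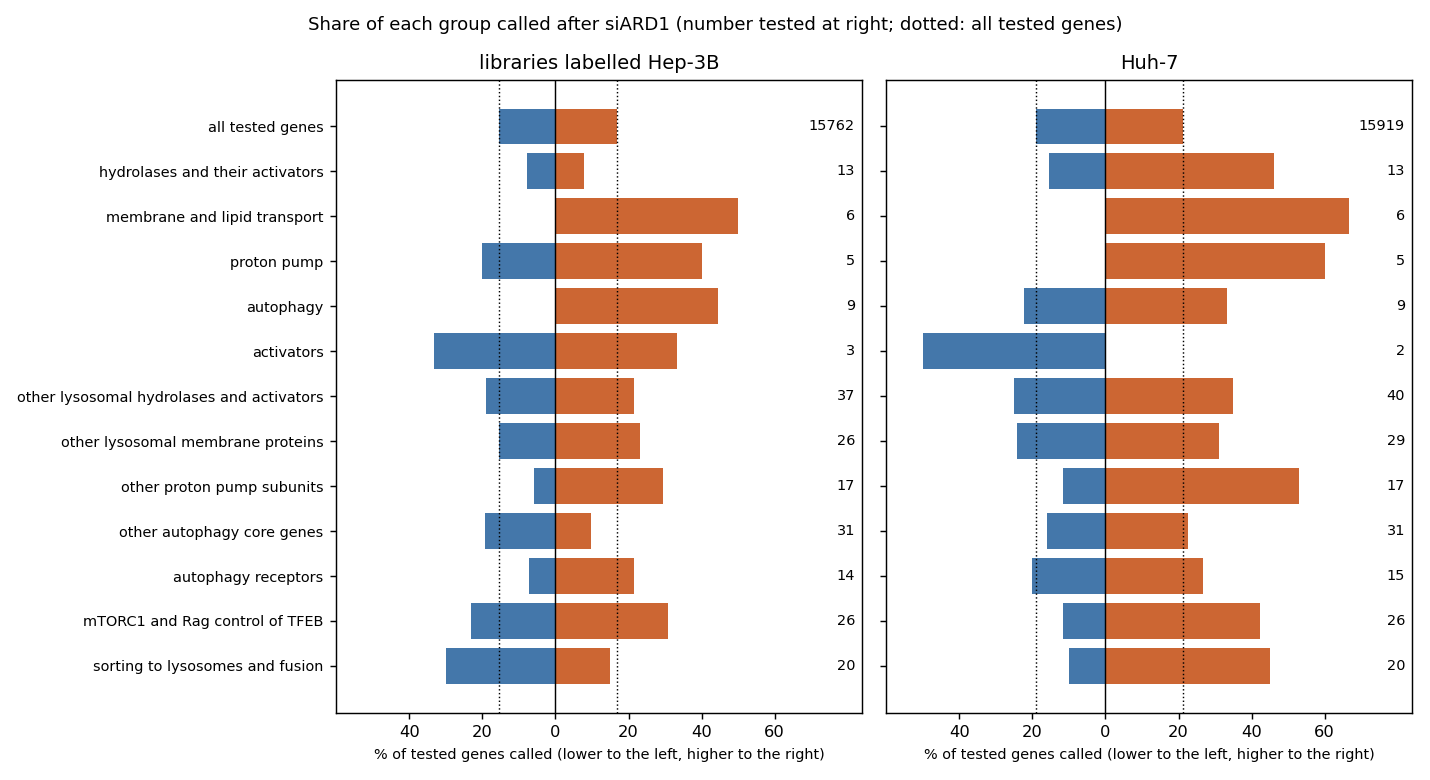
Share of tested genes called higher (orange, to the right) or lower (blue, to the left) after siARD1, in percent, for each role among the 36 genes, for each wider list and for all tested genes (dotted lines), with the number tested at the right. In Huh-7 the longest bars to the right belong to membrane and lipid transport (4 of 6), the proton pump (3 of 5) and other proton pump subunits (9 of 17).

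The 4 genes printed with TCACGTGA were all higher in Huh-7, at log2 0.62 (CTSA), 0.54 (MCOLN1), 0.32 (LAMP1) and 0.18 (ATP6V0D1). The ATP6V0D1 call was lost with upper-quartile scaling (edgeR adjusted p = 0.0966). In the libraries labelled Hep-3B only LAMP1 of the 4 was called (0.25), and the other 3 lay between -0.12 and -0.03. With the members left out, 242 genes with TCACGTGA in a promoter window were tested in each line, a group formed after the members' values were seen. In Huh-7 34.7% of them rose and 12.4% fell (84 and 30 genes, median 0.08), beside 21.2% and 18.9% of all genes. In the first line 18.6% rose and 19.0% fell (45 and 46 genes, median -0.04), beside 16.8% and 15.3%. The shorter CACGTG gave nearly the same picture over 1412 genes in Huh-7, which include the 242, at 32.8% higher and 14.9% lower. These shares come from the TMM fit alone and were not counted under other scalings. With upper-quartile scaling in Huh-7 the median over all tested genes moved by -0.06. Of all called genes 39.7% were then higher, against 52.9% with TMM. Other factors also read CACGTG, and NEU1, which rose most, holds it as TCACGTGG, without the final A of TCACGTGA. Base composition of these windows was not taken into account.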

How the data were processed

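Gene-level RNA-seq was compared in 12 libraries. Per the labels' protocols, rRNA was removed and a directional kit was used. The submitters' processing notes name cutadapt 4.6, STAR 2.7.11b and GRCh38. How reads were counted, on which annotation and with which strand setting, is not given in the sources used here. The values the authors deposited are raw counts per Ensembl gene, in a table for each line. All columns were mapped to a sample by title. Symbols came from a table of Ensembl IDs (25701 and 25698 genes matched), positions and exon lengths from GENCODE v29 (GRCh38), and promoters from RefSeq.

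Each line was fitted alone in R 4.3.3 with edgeR 4.0.16 (filterByExpr with a minimum count of 10 and total of 15, TMM factors, robust quasi-likelihood F-test, Benjamini-Hochberg over all tested genes, threshold 0.05). The difference between lines was the interaction in 1 fit of the 4 groups over genes in both tables. SEs were derived from the log2 fold change and its F, and 95% intervals use the fit's degrees of freedom. The fits were tested on simulated data. Depth limits precision most for TFEB (54 to 240 counts per library) and for MITF in Huh-7 (1 to 7). No pair of replicate libraries agreed within counting noise (chi-square per degree of freedom 2.42 to 9.76).

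All 36 genes are accounted for. From each wider list, the 3 genes with the smallest adjusted p per line are named, except for some that are not reported here. The members and lists were chosen with earlier results of these data known, so patterns seen before are not independent support. Alternatives were RLE and upper-quartile scaling, DESeq2 1.42.0, no filter, 1 CPM in 3 libraries, the replicate block, both lines in 1 fit and each library left out. Where the strand setting is unknown, reads of a gene and an overlapping partner on the opposite strand cannot be told apart. This touches, among others, CTSA (PLTP and NEURL2, up to 1038 of 5856 exon bases), HEXA (HEXA-AS1 among them, up to 1273 of 12611), WIPI1 (ARSG, 828 of 3402), ATG7 (VGLL4, 1596 of 8833), BECN1 (CNTD1 and PSME3, up to 795 of 6414) and NPC1 (RMC1, 604 of 10102). CTSD shares 1304 of 3126 bases with a gene model on its own strand.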

Additional observations from a re-analysis of the deposited data

Results flagged for a closer look

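In 15 of the 36 genes (41.7%), the change after siARD1 differed between the lines by the interaction term of the edgeR fit. Of all 17122 genes tested, 31.4% passed the same test. Values are the log2 fold change in Huh-7 minus that in the libraries labelled Hep-3B. The change in Huh-7 was the higher for NEU1 (1.16), NPC2 (0.87), CTSA (0.67), MCOLN1 (0.65), HEXA (0.41), GLA (0.37), CTSL (0.36), ATG7 (0.35) and ATP6V0A1 (0.31). It was the lower for WIPI1 (-0.80), LIPA (-0.71), GABARAPL1 (-0.48), SCARB2 (-0.47), ULK1 (-0.41) and ATP6V1A (-0.34). NAA10 fell by 2.01 on the log2 scale in the libraries labelled Hep-3B and by 3.98 in Huh-7, so a difference between lines and a difference in the depth of knockdown cannot be told apart.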

How the results depend on the processing

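Over all alternatives no member changed its sign while called in either fit. Counted over members and alternatives, 454 values in the libraries labelled Hep-3B kept their side of the threshold, 13 lost the call and 1 gained it. In Huh-7 these were 429, 24 and 2, and for the difference between lines 635, 4 and 9. Leaving out each library in turn gave 3695 to 4922 changed genes in the libraries labelled Hep-3B, 5249 to 6137 in Huh-7 and 4739 to 5579 for the difference, against 5070, 6388 and 5380. Members called higher ran from 10 to 12, 13 to 16 and, for the difference, 8 to 13. Members called lower ran from 1 to 3 in the libraries labelled Hep-3B, with 1 left without control 2, control 3 or siARD1 library 1. In Huh-7 they ran from 2 to 5, with 3 without control 1 and 2 without siARD1 library 2. For the difference they ran from 6 to 7. Same-numbered control and siARD1 libraries correlated in their deviations at 0.0292 to 0.104 (Hep-3B label) and -0.105 to 0.0988 (Huh-7). The main fits did not take the numbers to pair samples, because the labels do not state it. In the first line each library correlated best with its own number, in Huh-7 it did not. With the replicate block 5597, 6328 and 5606 genes were called, and ATG5 in Huh-7 was the only member to lose its call. Depth limits MITF in Huh-7, which was not tested.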
